A study of Mus musculus with 6 samples.

Results

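The V1 sector of the vacuolar H+-ATPase (V-ATPase) was described through 8 of its subunit genes in RAW264.7, an immortalised line of mouse macrophages. The genes were Atp6v1a, Atp6v1b2, Atp6v1c1, Atp6v1d, Atp6v1e1, Atp6v1f, Atp6v1g1 and Atp6v1h. They were taken as members of the cytosolic sector from 55536 genes in the deposited tables. The set leaves out 5 further isoform genes of the sector, which had few or no reads and are described on their own. All 6 RNA-sequencing libraries came from cultures given RANKL at 50 ng/mL, the cytokine that drives macrophage precursors towards osteoclasts. In 3 of them the medium also held etelcalcetide at 4 µM, a peptide agonist of the calcium-sensing receptor. Treatment ran for 5 days in the series design, but in either group replicate 1 is labelled with 5 days, replicate 2 with 6 and replicate 3 with 7. No library without RANKL was analysed here, and all samples are of 1 cell line. As nothing in the labels says that replicates were separate cultures, each p-value measures the spread among these samples alone, and that spread may be technical.

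The V-ATPase is a rotary proton pump. Its V1 sector lies in the cytosol and hydrolyses ATP, and its V0 sector lies in the membrane and carries protons across. In V1, A and B subunits alternate in a ring that holds the ATP sites, D and F form the central rotor, E and G form the peripheral stalks, and C and H join the stalks to V0. An assembled pump holds 3 copies each of A, B, E and G, and 1 copy each of C, D, F and H. The pump acidifies lysosomes in macrophages, and in osteoclasts it is also sent to the ruffled border, where it acidifies the space in which bone is dissolved.

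The upstream sequences of the genes at both ends of the response, Atp6v1a and Atp6v1f, are shown first. RefSeq promoter windows on GRCm38.p6 matched 4 of the 8 genes, Atp6v1a, Atp6v1d, Atp6v1e1 and Atp6v1f. Each printed stretch is the part of the 250 bases before the RefSeq start that holds no exon of GENCODE M21. The Atp6v1a stretch is chr16:44139306-44139461 on the minus strand and lies between annotated exons of Atp6v1a transcripts. The Atp6v1f stretch is chr6:29467533-29467717 on the plus strand and ends at the base before the first Atp6v1f exon. Capitals mark the palindrome TCACGTGA.
Atp6v1a: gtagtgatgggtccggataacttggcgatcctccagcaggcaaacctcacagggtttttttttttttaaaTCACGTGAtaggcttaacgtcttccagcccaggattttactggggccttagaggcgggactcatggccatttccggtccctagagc
Atp6v1f: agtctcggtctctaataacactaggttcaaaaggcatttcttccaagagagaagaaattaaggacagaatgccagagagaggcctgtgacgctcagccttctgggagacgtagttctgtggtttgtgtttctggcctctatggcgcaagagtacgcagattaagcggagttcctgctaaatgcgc

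Letters were searched on both strands in the 250 bases before each start. TCACGTGA stood at positions -132 to -125 of Atp6v1a, counted back from the RefSeq start, and 0.785% of 32851 mouse windows of that length held it. The shorter CACGTG, which lies inside it, was in 6.02% of the windows and in none of the 3 other matched members. The Sp-factor letters GGGCGG, which 32.7% of the windows held, were found in Atp6v1d at -75 to -70, in Atp6v1e1 at -130 to -125, and in Atp6v1f at -31 to -26 and -14 to -9, the last pair within its annotated first exon. The ETS-factor letters CGGAAG, in 13.6% of the windows, were found in Atp6v1e1 at -43 to -38 and, as their reverse complement, at -111 to -106. A match describes letters in a window and is no measure of binding.

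With etelcalcetide, 6 of the 8 V1 genes fell and none rose. The falls spanned 2.59-fold for Atp6v1a to 1.30-fold for Atp6v1g1, and Atp6v1e1 and Atp6v1f did not pass the test. In limma's fit across 11120 tested genes, with Benjamini-Hochberg adjusted p below 0.05 as the threshold, 27% of genes fell, 26% rose and 53% were called in either direction. At an unadjusted p below 0.05 the members numbered 7 lower and 0 higher, beside 29.9% and 29% of all tested genes. The voom fit, run on the recovered reads, called 7 lower and 0 higher, beside 28.5% and 26.6%. The median log2 difference of the 8 members, treated minus RANKL, was -0.53, against -0.01 over all tested genes. After scaling, 7 of the 8 were lower with etelcalcetide with no overlap between groups. Of all tested genes 31.2% were lower without overlap, 30.7% higher without overlap, and 61.9% either way. In bulk samples, fewer cells of a type and less RNA per cell cannot be told apart.

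Depth was even over the libraries. The deposited values are FPKM (fragments per kilobase of exon, relative to library size), and each was a whole number of reads within 0.01 reads, which gave 13742913 to 16264432 reads a library. The smallest count of any member in any library was 661 reads, for Atp6v1d. Scaling by TMM, a trimmed mean of gene ratios, used factors between 0.967 and 0.978 for RANKL and between 1.01 and 1.04 for etelcalcetide. With library totals alone the median of all genes moved from -0.01 to 0.07 on the log2 scale, and the called genes split into 3558 higher and 2272 lower, in place of 2896 and 2998. The log2 differences below compare FPKM divided by the TMM factor with a pseudocount of 0.1 FPKM added, whereas single levels are FPKM as deposited.

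Both genes of the catalytic ring fell. Atp6v1a (ENSMUSG00000052459, GRCm38 chromosome 16, 44085402 to 44139705, minus strand) encodes the A subunit, which carries the catalytic site. Its level was 85.0, 85.9 and 81.4 FPKM in the 3 RANKL libraries and 33.99, 33.2 and 35.5 FPKM in the 3 treated ones. All treated libraries lay below all RANKL libraries, and the spread within each group was small against the gap between them. The log2 difference was -1.37 (SE 0.0492, 95% confidence interval -1.49 to -1.26, limma adjusted p = 2.03e-07), and 1.86% of tested genes had a lower one.

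Atp6v1b2 (ENSMUSG00000006273, chromosome 8, 69088646 to 69113711, plus strand) encodes the B2 subunit, the non-catalytic partner of A in the ring. It stood at 79.2, 91.2 and 97.0 FPKM with RANKL and at 53.3, 56.1 and 55.3 FPKM with etelcalcetide. The groups did not overlap, and the RANKL libraries were more spread than the treated ones. With RANKL the values rose from replicate 1 to replicate 3, the order of the labelled days. Those of Atp6v1e1, Atp6v1f and Atp6v1g1 did too, whereas those of Atp6v1a, Atp6v1c1, Atp6v1d and Atp6v1h did not. A part of the labelled days in this spread was not tested. The log2 difference of Atp6v1b2 was -0.77 (SE 0.0743, interval -0.94 to -0.60, limma adjusted p = 4.86e-05), a 1.71-fold fall.

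**Figure D1:**
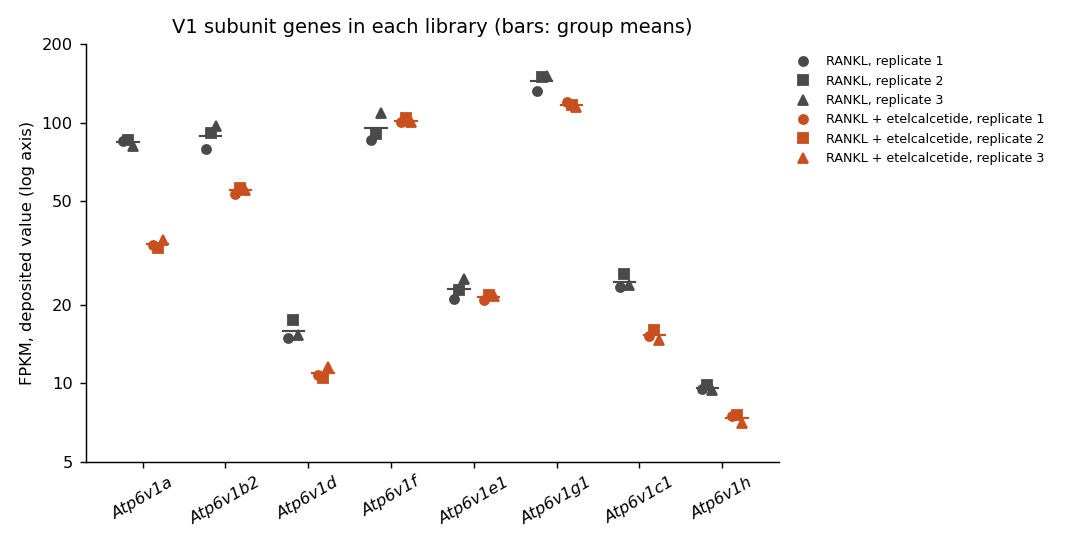
Level of each V1 subunit gene in FPKM (vertical axis, log scale) in the 3 RANKL and 3 RANKL with etelcalcetide libraries; points are single libraries and bars the group means. The Atp6v1a points separate from 81.4 to 85.9 down to 33.2 to 35.5 FPKM, whereas the Atp6v1f and Atp6v1e1 points overlap between groups.

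Of the rotor genes, Atp6v1d fell and Atp6v1f did not pass the test. Atp6v1d (ENSMUSG00000021114, chromosome 12, 78840725 to 78861638, minus strand) encodes the D subunit, the shaft that turns inside the ring. Its values were 14.9, 17.5 and 15.3 FPKM with RANKL and 10.8, 10.5 and 11.6 FPKM with etelcalcetide, with no overlap. It fell 1.53-fold, with a log2 difference of -0.61 (SE 0.0779, interval -0.79 to -0.44, limma adjusted p = 0.000244).

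Atp6v1f (ENSMUSG00000004285, chromosome 6, 29467718 to 29470512, plus strand) encodes the F subunit, which is bound to D in the rotor. It stood at 86.1, 90.7 and 108.5 FPKM with RANKL and at 100.3, 104.2 and 100.7 FPKM with etelcalcetide. The treated libraries lay inside the range of the RANKL libraries. The log2 difference was 0.025 (SE 0.0805, limma adjusted p = 0.816), and its interval of -0.16 to 0.21 excludes a fall as large as those of the 6 called members. Its sign turned when single libraries were left out: it was -0.044 without RANKL replicate 1, -0.0013 without RANKL replicate 2 and -0.0029 without treated replicate 2.

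Of the stalk genes, 1 of 2 passed the test. Atp6v1g1 (ENSMUSG00000039105, chromosome 4, 63544772 to 63550750, plus strand) encodes the G1 subunit, and its values were 132.3, 149.2 and 150.6 FPKM with RANKL and 119.3, 116.7 and 114.8 FPKM with etelcalcetide. The treated libraries were all lower, by a log2 difference of -0.38 (SE 0.0606, interval -0.51 to -0.24, limma adjusted p = 0.000885). Atp6v1e1 (ENSMUSG00000019210, chromosome 6, 120794305 to 120822793, minus strand) encodes the E1 subunit that pairs with G. It stood at 21.1, 22.8 and 25.1 FPKM with RANKL and at 20.8, 21.8 and 21.6 FPKM with etelcalcetide. These deposited values overlap between groups, and only after scaling do they not. The log2 difference of -0.18 (SE 0.0692, interval -0.34 to -0.02) had an unadjusted p of 0.0290 and a limma adjusted p of 0.0540. It passed without RANKL replicate 1, at -0.24 with a limma adjusted p of 0.0144.

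Both collar genes, which join the stalks to V0, fell. Atp6v1c1 (ENSMUSG00000022295, chromosome 15, 38661933 to 38692446, plus strand) encodes the C1 subunit, which leaves the complex when V1 detaches from V0. It stood at 23.5, 26.3 and 23.8 FPKM with RANKL and at 15.1, 16.1 and 14.7 FPKM with etelcalcetide. The groups were well apart, with a log2 difference of -0.76 (SE 0.0695, interval -0.91 to -0.60, limma adjusted p = 3.82e-05), a 1.69-fold fall. Atp6v1h (ENSMUSG00000033793, chromosome 1, 5070018 to 5162529, plus strand) encodes the H subunit, which holds back ATP hydrolysis by free V1. Its values were 9.53, 9.86 and 9.45 FPKM with RANKL and 7.50, 7.59 and 7.05 FPKM with etelcalcetide. It fell 1.37-fold with no overlap, by a log2 difference of -0.46 (SE 0.0693, interval -0.61 to -0.30, limma adjusted p = 0.000667).

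**Figure D2:**
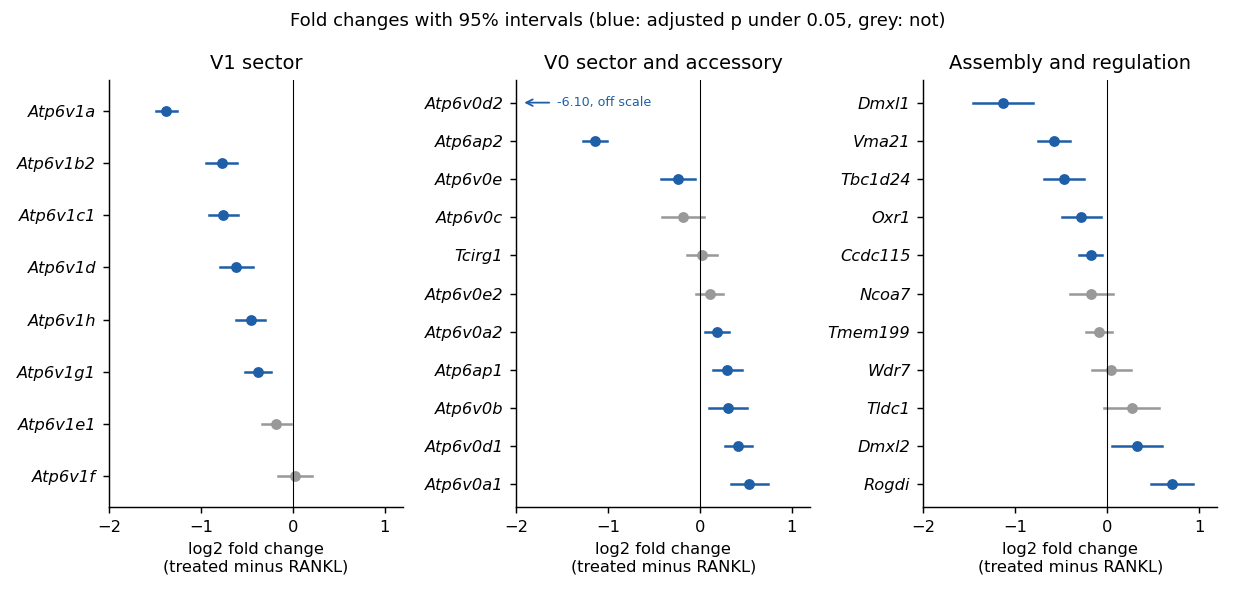
Log2 difference, treated minus RANKL, with 95% confidence intervals from limma, for the V1 members, the V0 and accessory genes and the assembly genes. The V1 members run from -1.37 for Atp6v1a to 0.025 for Atp6v1f, and Atp6v0d2 of the V0 list, at -6.10, is off the scale and marked by an arrow. Blue marks an adjusted p below 0.05 and grey the rest.

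Overlapping exons and near-identical copies were counted for each member. Atp6v1e1 shares 0.779% of its exon bases with Slc25a18 on the other strand, and Atp6v1h shares 1.30% with Rgs20. The sources used here do not say whether the counting used strand. Processed pseudogenes at least 90% identical were annotated for Atp6v1a, Atp6v1f and Atp6v1g1. The Atp6v1f copy, 97.5% identical over 360 bases, had 9 reads in all 6 libraries, or 0.0947% of the reads of Atp6v1f. The nearest Atp6v1g1 copy, Gm13453, is 99.4% identical over 357 bases and had 11 reads, or 0.0815% of the reads of Atp6v1g1. The sources used here do not say how reads that match a gene and its copy were assigned, so Atp6v1f and Atp6v1g1 carry that uncertainty.

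The members did not fall in proportion, so the make-up of the V1 transcript pool differed between groups. Summed over the 8 genes, the level was 451.7, 493.4 and 511.1 FPKM with RANKL and 361.1, 366.2 and 361.2 FPKM with etelcalcetide. The means were 485 ± 30.5 and 363 ± 2.89 FPKM (SD, n = 3 each), a difference of -25.3%. Without Atp6v1a it was -18.1%. These are deposited values, and after division by the TMM factors the means of the 8-gene sum were 499 and 353 FPKM. The groups did not overlap, and the two-sided exact permutation test gave p = 0.1, the smallest that 3 against 3 libraries allow. The same limit holds for every share and ratio below, none of which can reach 0.05.

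Shares of this sum do not depend on scaling between libraries. Atp6v1a made up 17.4% ± 1.45 of the V1 sum with RANKL and 9.43% ± 0.386 with etelcalcetide (SD, n = 3 each). Atp6v1f made up 19.6% ± 1.49 and 28.0% ± 0.369, the largest gain in share of any member. On the deposited scale Atp6v1g1 held the largest share in both groups, 29.7% ± 0.501 and 32.2% ± 0.701. Shares are parts of a whole, so a share can rise without a rise in level. On this scale Atp6v1g1 gained share although its level fell, and Atp6v1f although its level did not pass the test.

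The share of Atp6v1b2 was 18.3% ± 0.731 with RANKL and 15.1% ± 0.324 with etelcalcetide, that of Atp6v1c1 was 5.06% and 4.22%, and that of Atp6v1e1 was 4.74% and 5.90%. For these 6 genes the groups did not overlap (exact permutation p = 0.1, Benjamini-Hochberg adjusted over 8 shares p = 0.133). No count over sums of other genes was made to set beside these 6. The shares of Atp6v1d, 3.28% and 3.01%, and of Atp6v1h, 1.99% and 2.03%, overlapped between groups (exact permutation p = 0.2 and 0.7, adjusted 0.229 and 0.7).

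Some of these shares depend on the scale. Copies per complex count protein, whereas the levels are of RNA, and neither subunit protein nor assembled pumps were measured here. With each level divided by its copies per complex, Atp6v1f held the largest share in both groups, 36.7% and 48.2%. Atp6v1g1 then made up 18.6% and 18.5%, with overlap, in place of a gain of 2.57 percentage points without overlap. Atp6v1d made up 6.16% and 5.18% per copy, without overlap, and Atp6v1h 3.73% and 3.50%, with overlap. Per kilobase of principal transcript, Atp6v1b2 led with RANKL at 21.4% and Atp6v1f with etelcalcetide at 26.5%, and the gain of Atp6v1g1 was 1.69 points without overlap. The share of Atp6v1a was lower in the treated libraries without overlap on each of these scales, and that of Atp6v1f higher.

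Ratios within the structural pairs show the same unevenness gene by gene. The proteins of Atp6v1a and Atp6v1b2 stand in equal copies in the ring. The RNA ratio of Atp6v1a to Atp6v1b2 was 1.07, 0.941 and 0.839 with RANKL and 0.638, 0.591 and 0.642 with etelcalcetide. Its log2 mean was -0.08 ± 0.178 and -0.68 ± 0.0663 (SD, n = 3 each), a difference of -0.60. The RANKL libraries were spread, with ratios falling from replicate 1 to replicate 3, but none reached down to the treated ones.

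In the rotor, the ratio of Atp6v1d to Atp6v1f was 0.173, 0.193 and 0.141 with RANKL and 0.107, 0.1003 and 0.115 with etelcalcetide, a log2 difference of -0.64. The collar ratio of Atp6v1c1 to Atp6v1h was 2.47, 2.66 and 2.52 with RANKL and 2.02, 2.11 and 2.09 with etelcalcetide, a log2 difference of -0.30. In the stalk the ratio of Atp6v1e1 to Atp6v1g1 was 0.160, 0.153 and 0.166 with RANKL and 0.174, 0.187 and 0.188 with etelcalcetide, a log2 difference of 0.20. The sign of each ratio difference depends on which gene is named first. All 4 pairs separated the groups without overlap (exact permutation p = 0.1 each, adjusted over the 4 pairs p = 0.1). Of all 28 possible pairs of members, these 4 included, 23 did so, and separation is thus not particular to the structural pairs. Among single tested genes 61.9% separated the groups after scaling, and the share among pairs of other genes was not computed. Whether 23 of 28 is unusual was therefore not tested.

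**Figure D3:**
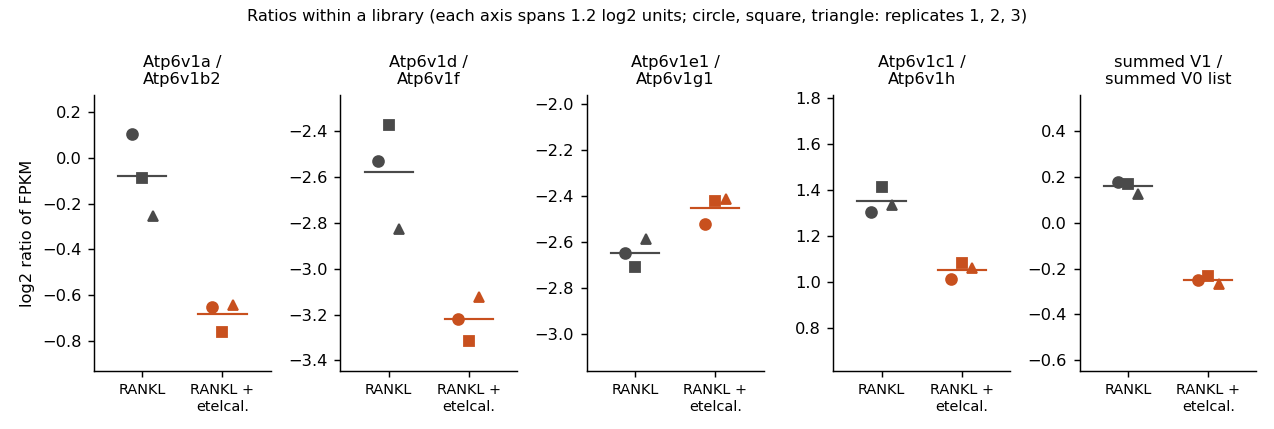
Log2 ratio of FPKM within the 4 structural pairs of V1, and of the V1 sum to the summed V0 list, in each library (points) with group means (bars); each panel has its own axis of equal span. The ratio of Atp6v1a to Atp6v1b2 has means of -0.08 with RANKL and -0.68 with etelcalcetide. As written, the ratio of Atp6v1e1 to Atp6v1g1 has higher treated values, a sign that depends on which gene is named first.

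Outside the planned pairs, 2 further ratios were chosen after their values were seen. Atp6v1a against Atp6v1f had log2 ratios of -0.17 with RANKL and -1.57 with etelcalcetide, the largest difference among the 28 possible pairs. Atp6v1b2 against Atp6v1c1 had 1.86 and 1.84, the smallest difference, so these genes of the ring and the collar moved by nearly the same factor.

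The order of levels depends on the length used for each gene. On the deposited scale, per kilobase of all merged exons, Atp6v1g1 was highest in both groups and Atp6v1h lowest. With RANKL, Atp6v1f, Atp6v1b2 and Atp6v1a followed Atp6v1g1 with overlapping neighbours, then Atp6v1c1 and Atp6v1e1, which overlapped, and then Atp6v1d. With etelcalcetide the order was Atp6v1g1, Atp6v1f, Atp6v1b2, Atp6v1a, Atp6v1e1, Atp6v1c1, Atp6v1d and Atp6v1h, and no neighbours overlapped. The ratio of the highest to the lowest mean level was 15.0 with RANKL and 15.8 with etelcalcetide.

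Merged exons run longer than the main transcript for most members. Atp6v1h has 9746 merged bases against 2049 in its principal transcript, 4.76 times as many, whereas Atp6v1g1 has 1135 in both. The remaining ratios ran from 1.26 for Atp6v1d to 3.13 for Atp6v1e1. Per kilobase of principal transcript, a scale added after the data were seen, Atp6v1h had 45.7 FPKM with RANKL and 35.1 with etelcalcetide, and Atp6v1d was the lowest at 19.9 and 13.7.

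On that scale Atp6v1b2, at 167 FPKM, overlapped Atp6v1g1 and Atp6v1f, both at 144, in the RANKL libraries. With etelcalcetide Atp6v1f led at 154 FPKM, followed by Atp6v1g1 at 117 and Atp6v1b2 at 103. Atp6v1a went from 120 FPKM, above Atp6v1e1 at 72.1, to 48.9 FPKM, below Atp6v1e1 at 67.0. The ratio of highest to lowest was 8.40 with RANKL and 11.2 with etelcalcetide.

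**Figure D4:**
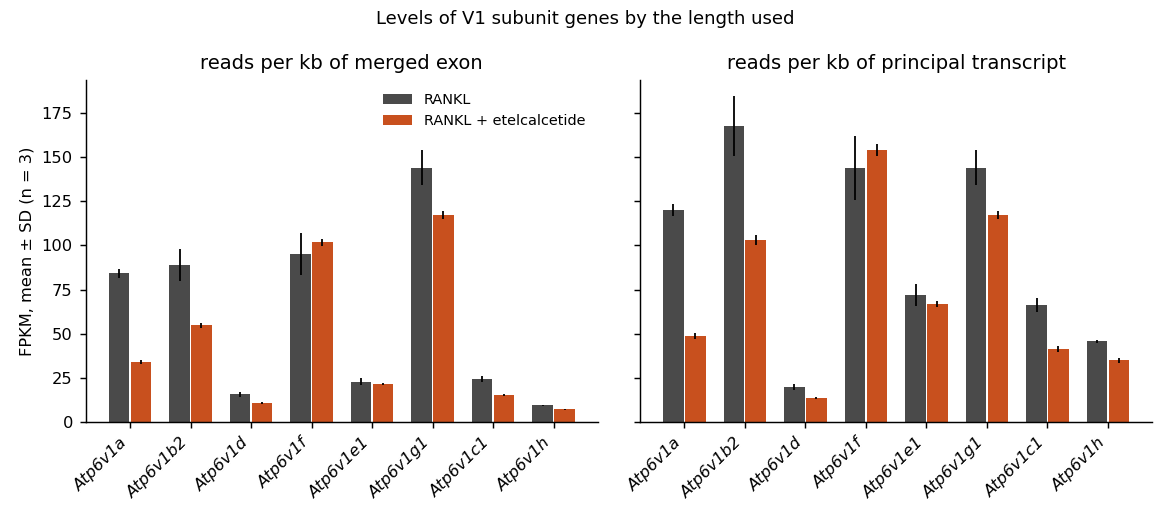
Mean level of each V1 gene in both groups (bars, FPKM, axis from 0), per kilobase of merged exons as deposited on the left and per kilobase of principal transcript on the right; error bars are the SD over 3 libraries. Atp6v1h is lowest on the first scale, and Atp6v1d, at 19.9 and 13.7, is lowest on the second.

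The spread among the 8 levels, as the SD of log2 FPKM over the members of a library, was 1.44 ± 0.0427 with RANKL and 1.47 ± 0.000771 with etelcalcetide (SD, n = 3 each). The groups overlapped (exact permutation p = 0.4), with a difference of 0.027. Without Atp6v1a the spread was 1.49 and 1.58, and without RANKL replicate 3 the difference was 0.051, both without overlap. Per copy in the complex it was 1.18 and 1.30, without overlap. Per kilobase of principal transcript it was 1.05 and 1.13, with the nearest libraries of the groups at 1.1069 and 1.1071.

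The other V1 isoform genes were at or near the limit of detection. Atp6v1b1, Atp6v1e2 and Atp6v1g3, isoforms known from kidney or testis, had 0 reads in all 6 libraries. A count of 0 allows up to 3 reads, or at most 0.0498 FPKM for Atp6v1b1, 0.168 for Atp6v1e2 and 0.116 for Atp6v1g3 in the shallowest library, by counting error only. Atp6v1c2 had 0, 3 and 0 reads with RANKL and 2, 1 and 1 with etelcalcetide. Atp6v1g2, an isoform known from neurons, had 18, 6 and 17 reads with RANKL and 25, 21 and 24 with etelcalcetide, and it passed the filter on low values through its treated libraries alone, so no test of it is given. Its log2 difference was 0.66 and ran from 0.27 to 0.86 with single libraries left out.

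Genes of the membrane sector were called in both directions. Of 12 V0 and accessory genes, 11 were tested, 5 rose, 3 fell and 3 did not pass, beside 26% higher and 27% lower of all tested genes. The 3 that fell include Atp6v0d2, for which the filter on low values favours a fall. Their median log2 difference was 0.11, beside -0.53 for V1. The summed level of this list, as deposited and before scaling, was 435 ± 34.6 FPKM with RANKL and 432 ± 3.08 with etelcalcetide (SD, n = 3 each). The ratio of the V1 sum to the V0 sum was 1.13, 1.13 and 1.09 with RANKL and 0.841, 0.851 and 0.830 with etelcalcetide. The groups did not overlap, with a log2 difference of -0.41 (exact permutation p = 0.1). Without Atp6v0d2, an osteoclast form of the V0 d subunit, it was -0.52. With the mean of log2 levels in place of the sums it was -0.07 with Atp6v0d2 and -0.58 without it, the last added after the data were seen.

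Among V0 genes, Atp6v0d2 had 28.8, 35.9 and 30.8 FPKM with RANKL and 0.477, 0.375 and 0.317 FPKM with etelcalcetide, and it passed the filter through its RANKL libraries alone. Its log2 difference of -6.10 moves with the pseudocount, to -4.61 at 1 FPKM and -6.41 at 0.01 FPKM. The broadly expressed counterpart Atp6v0d1 rose by 0.42 (limma adjusted p = 0.000629). Atp6ap2, an accessory subunit also known as the prorenin receptor, fell by 1.14. Atp6v0a1 rose by 0.54, and Tcirg1, the osteoclast a3 form of the a subunit, had 0.02 (interval -0.14 to 0.18, limma adjusted p = 0.827). Atp6v0c at -0.19 and Atp6v0e2 at 0.11 did not pass either. The other called genes, listed after their values were seen, were Atp6v0b at 0.31, Atp6ap1 at 0.30, Atp6v0a2 at 0.19 and Atp6v0e at -0.24 (limma adjusted p = 0.0204, 0.00672, 0.0212 and 0.0341). Atp6v0e lost its call with library totals, with no filter and in each fit that left out a library other than RANKL replicate 1. Atp6v0b lost its call with no filter and without RANKL replicate 1, RANKL replicate 2 or treated replicate 2, and Atp6v0a2 without RANKL replicate 2, treated replicate 1 or treated replicate 2. Atp6v0a4 had no reads. The count of higher V0 genes was 3 without RANKL replicate 2 and without treated replicate 2.

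Of 12 genes that assemble or regulate the pump 11 were tested, 2 rose, 5 fell and 4 did not pass, with a median of -0.17. Of all tested genes 26% rose and 27% fell, and 7 called of 11 is near the 53% called over all genes. Dmxl1, a subunit of the RAVE-like complex that rejoins V1 to V0, fell by 1.14 on the log2 scale (limma adjusted p = 0.000241), and Vma21, an assembly chaperone of V0, fell by 0.58. Rogdi, another RAVE-like subunit, rose by 0.70 (limma adjusted p = 0.000462), and 10.2% of its exon bases overlap the antisense gene Gm42477. Tbc1d24 fell by 0.47. The remaining calls, listed after their values were seen, were Dmxl2 at 0.32, Oxr1 at -0.28 and Ccdc115 at -0.18, and Dmxl2 passed narrowly (limma adjusted p = 0.0472). Wdr7 at 0.04, Tmem199 at -0.09, Ncoa7 at -0.17 and Tldc1 at 0.27 did not pass. Dmxl2 was lost under 5 of the 9 settings that keep all libraries and in each fit that left out a library other than RANKL replicate 1. Oxr1 was lost with library totals, with no filter and in each fit that left out a library other than RANKL replicate 3, and Ccdc115 with library totals and in 4 of the 6 fits that left out a library. The count of lower genes was 3 with library totals alone and without RANKL replicate 2, treated replicate 2 or treated replicate 3.

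Genes that work beside the pump in bone resorption were lower, 7 of 8 tested, with 0 higher and a median of -0.81, beside 27% lower over all tested genes. The 7 lower genes and the median include Ctsk, for which the filter on low values favours a fall. At an unadjusted p below 0.05 limma gave 7 lower and 1 higher, as did voom by its own adjusted p, the higher gene being Ostm1, the partner of the chloride-proton exchanger Clcn7. Ostm1 had a log2 difference of 0.21 (limma adjusted p = 0.0703). Car2, the carbonic anhydrase that supplies protons to the pump, fell by 1.26 (limma adjusted p = 2.32e-06), close to Atp6v1a. Snx10, a sorting nexin needed for the ruffled border, fell by 1.13. The protease gene Ctsk and the phosphatase gene Acp5 stood at 94.5 ± 23.1 and 115 ± 22.1 FPKM with RANKL and at 0.191 ± 0.0570 and 3.93 ± 0.709 FPKM with etelcalcetide (SD, n = 3 each). Ctsk passed the filter through its RANKL libraries alone, had 3 to 5 reads in each treated library, and its log2 difference ran from -6.34 at a pseudocount of 1 FPKM to -8.97 at 0.01 FPKM.

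Some marker genes moved beside the members. The 5 macrophage markers were all detected. Their summed levels, as deposited and before scaling, were 813 to 892 FPKM with RANKL and 1007 to 1052 with etelcalcetide. Most of each sum was Cd68, with means of 543 and 620 FPKM, and Csf1r, with 276 and 313 FPKM. Of these, Adgre1 rose 2.82-fold and Itgam 1.70-fold, beside 26% higher of all tested genes, and Itgam shares 68.7% of its exon bases with Gm49368. Cd68, Csf1r and Ptprc, with log2 differences of 0.11, 0.10 and 0.09, did not pass (limma adjusted p = 0.159, 0.111 and 0.486). Of 6 osteoclast markers 5 were tested and 4 fell, Ctsk, Acp5, Ocstamp and Oscar, beside 27% lower of all tested genes. Ctsk and Oscar passed the filter through RANKL libraries alone, which favours a fall. The summed level of all 6 was 185 to 272 FPKM with RANKL and 27.4 to 28.5 with etelcalcetide. Dcstamp, which did not pass the test, made up most of the treated sum, with 20.7 ± 3.09 FPKM with RANKL and 21.7 ± 0.819 with etelcalcetide (SD, n = 3 each). Calcr, the calcitonin receptor of mature osteoclasts, had 4, 1 and 3 reads with RANKL and 0 in each treated library, and Oscar had 0 in each treated library. Of 12 markers of other cell types, none was high enough to be tested and 6 had no read. Their summed level was at most 0.751 FPKM with RANKL and 0.186 with etelcalcetide, and with RANKL most of it came from Pecam1. The part of these marker shifts in the V1 differences was not tested.

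The 5 tested genes whose profile over the 6 libraries was nearest to that of Atp6v1a, the member with the largest difference, were Pdgfa, Atg9b, Tbc1d2b, Frmd4b and Abr. Nearness was the root mean square distance of log2 levels centred on each gene's mean. It ran from 0.0459 for Pdgfa to 0.0831 for Abr, and the log2 differences of these genes lay between -1.33 for Tbc1d2b and -1.51 for Frmd4b.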

How the data were processed

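Total RNA of 6 RAW264.7 libraries was sequenced. The submitters' processing notes name HISAT2 2.1.0, Trimmomatic 0.38 and featureCounts 1.6.0, besides DESeq2 1.22.1, MultiQC, FastQC and CASAVA. The authors deposited FPKM values per gene, 1 table for each library. The notes name GRCh38, but all 55536 identifiers are mouse and matched GENCODE M21 (GRCm38). The sources used here do not give the library selection.

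Reads were recovered from FPKM and merged exon length. Genes with at least 0.5 FPKM and 10 reads in 3 libraries were tested by limma 3.58.1 (R 4.3.3) on log2(FPKM / TMM factor + 0.1), with Benjamini-Hochberg adjustment over 11120 genes and a threshold of 0.05. FPKM on this scale understates changes of low genes. The code was tested on simulated data. Shares, sums and ratios used exact permutation (scipy 1.17.1).

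Members and gene lists were chosen with earlier results of these data known. Named were all members and other V1 isoforms, up to 4 genes of each list by adjusted p with those not passing where they were at most 5, Atp6v0d2, Tcirg1, and the 5 profiles nearest the most changed member. Alternatives were other scalings, pseudocounts, filters, lengths, a replicate block, voom and leaving out each library.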

Additional observations from a re-analysis of the deposited data

How the results depend on the processing

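Under the 15 alternative fits, the 6 called V1 members stayed lower and past the threshold in each. Atp6v1e1 passed with median-of-ratios scaling (-0.19, limma adjusted p = 0.0456), upper-quartile scaling (-0.19, 0.0464) and voom (-0.18, 0.0390), and ran from -0.24 to -0.12 with single libraries left out. Atp6v1f then ran from -0.044 to 0.12, Tcirg1 from -0.047 to 0.094 and the share difference of Atp6v1h from -0.019 to 0.11 percentage points, so their signs are unresolved. Division by copies per complex, 3 for A, B, E and G and 1 for C, D, F and H, gives the genes other weights in the sum. With these weights the share differences of Atp6v1g1 (-0.105) and Atp6v1h (-0.234) turned.

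With single libraries left out, higher V0 genes numbered 3 to 5, higher assembly genes 1 to 2, lower assembly genes 3 to 4 and higher resorption genes 0 to 1. Higher assembly genes numbered 1 with median-of-ratios scaling, upper-quartile scaling, no filter, a filter of 1 FPKM and the replicate block. Library totals gave 3 lower assembly genes and 1 higher resorption gene, and voom also gave 1.

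Same-numbered libraries deviated together with correlations of 0.07, -0.02 and -0.03, so the numbers are not shown to pair them. A replicate block gave 5709 called genes, in place of 5894, and 6 lower members.

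At 3 libraries a group, exact tests cannot pass 0.05.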
